A study of Mus musculus with 26 samples.

Results

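The genes described here are 34 enzymes and helpers of lipid synthesis, 18 of cholesterol synthesis (the sterol branch) and 16 of fatty acid and triglyceride synthesis (the fatty acid branch). They were found by name among the 36883 gene names of a table of read counts from mouse liver, and all 34 were present and passed the filter on low counts. The livers came from Eµ-MYC mice, which carry a MYC transgene under the immunoglobulin heavy chain enhancer, an element active in B-lineage cells. The mice lived under chronic jet lag (CJL), which the series title gives as lasting 8 weeks, or under 12 hours of light and 12 hours of dark (12:12). There were 8 females under 12:12, 8 females under jet lag, 6 males under 12:12 and 4 males under jet lag, and libraries are numbered here as in their labels. All mice carried the transgene, so no library shows a liver without it. The sources used here do not state the mice's age, the time spent under 12:12, the shift schedule, the feeding regime or the hour of tissue collection.

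Cholesterol is built from acetyl-CoA through mevalonate, farnesyl diphosphate, squalene and lanosterol, and the enzymes of this route are controlled together by the transcription factor SREBP-2 (Srebf2), which is held back when cell sterols are plentiful. Fatty acids are built from the same acetyl-CoA by carboxylation and chain building, followed by elongation, desaturation and esterification into triglyceride, under SREBP-1 (Srebf1) and the carbohydrate-sensing factor ChREBP (Mlxipl). Hepatocytes are a main site of both routes, and the fatty acid route in particular follows feeding.

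Library totals ran from 45364557 to 50242019 counts, so a count of 0 allows at most 0.0661 CPM (the count over its library's total, times 1000000), a limit for counting error only. The liver label held in all libraries, with 11 hepatocyte markers summing to 155567 to 269728 CPM. Of 8 adipocyte markers, Adipoq, Plin1, Lep and Retn were at or under 0.0855 CPM in every library, Cidea reached 0.162 CPM and Cfd 1.08 CPM. Fabp4, which macrophages and endothelium also express, was at 5.30 to 25.1 CPM, and Pck1, which hepatocytes express too, at 319.8 to 3286 CPM. Cd79a, a part of the B cell receptor, was at 14.5 to 144 CPM in 8 libraries and at 1.28 to 2.95 CPM in the other 18. The 8 are called Cd79a-high here and the 18 Cd79a-low, at a limit of 8 CPM. The Cd79a-high libraries are female 12:12 libraries 6 and 7, female jet lag libraries 2, 5 and 6, male 12:12 libraries 3 and 5 and male jet lag library 8. The value just inside the limit was the 14.5 CPM of female jet lag library 2, and 2.95 CPM was the value just outside. These classes were made from the data and are not groups of the study.

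Per kilobase of exon, the levels within each branch spanned a wide range in the 18 Cd79a-low libraries. Lengths were taken as the union of annotated exons, and which annotation served for counting is unknown here. In the sterol branch the order of the top genes differed with sex. In females Hmgcs1, the synthase that makes HMG-CoA, had the highest level at 147 ± 48 CPM per kb (SD, n = 11), before Sc5d, a sterol desaturase, at 112 ± 17.8 CPM per kb and the sterol isomerase gene Ebp at 85.2 ± 13.3 CPM per kb. In males Sc5d stood first at 71.8 ± 19.1 CPM per kb (SD, n = 7), before Ebp at 64.9 ± 11.6 CPM per kb and Hmgcs1 at 45.6 ± 13.3 CPM per kb. The mean ± SD ranges of neighbours in both orders overlapped. Idi1, the isomerase of the isoprenoid units, was lowest in both sexes and at 3.87 ± 1.37 CPM per kb over the 18. In the fatty acid branch the stearoyl-CoA desaturase gene Scd1 led in both sexes, with 393 ± 224 CPM per kb over the 18 libraries. It stood before Fads2, a polyunsaturated fatty acid desaturase, with 179.9 ± 41.5 CPM per kb and Dgat2, which makes triglyceride, with 154 ± 30.8 CPM per kb, and these 3 ranges overlapped too. In males alone Thrsp, a lipogenic helper, came before Dgat2, at 159 ± 99 CPM per kb against 128 ± 17.1 CPM per kb. Acaca, an acetyl-CoA carboxylase, was lowest in both sexes and at 1.65 ± 0.521 CPM per kb over the 18.

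The 250 bases before the start site were read for the members listed in a RefSeq promoter table of GRCm38.p6, 15 of the sterol branch and 13 of the fatty acid branch. Fdps, Fdft1, Sqle, Scd1, Fads1 and Dgat2 were not among them. A CCAAT box (CCAAT on either strand, so also ATTGG) was found before 14 of the 15 sterol genes and 9 of the 13 fatty acid genes, and before 37.5% of all 27025 genes in the table (33.8% of its 32851 promoters). The exact sterol regulatory element TCACNCCAC, searched on both strands, was found before Hmgcs1 and before Mlxipl, and before 1.22% of all genes (1.05% of all promoters). The E-box CACGTG, which reads the same on both strands, was found before Hsd17b7, Sc5d, Dhcr7, Elovl5 and Mlxipl. It was found before 6.86% of all genes (6.02% of all promoters). Neither the direct repeat of liver X receptors nor the paired E-box of the carbohydrate response element, in their exact forms, was found before a member, and they were in 0.0152% and 0% of all promoters. Matches of letters describe the sequence and do not show that a factor binds. The promoters printed here belong to sterol genes that fell in Cd79a-high livers and to Elovl5, which rose under jet lag in Cd79a-low livers, with CCAAT boxes, the sterol regulatory element and the E-box in capitals. Hmgcs1 (plus strand, chr13:119690101-119690350) has the sterol regulatory element starting 137 bases before the start, and 3 CCAAT boxes. Mvd (minus strand, chr8:122443423-122443672), Cyp51 (minus strand, chr5:4104698-4104947) and Msmo1 (minus strand, chr8:64733579-64733828) have CCAAT boxes alone. Acat2 (minus strand, chr17:12960726-12960975) is the sterol gene with no match, and Elovl5 (plus strand, chr9:77917115-77917364) has an E-box and 2 CCAAT boxes.
Hmgcs1: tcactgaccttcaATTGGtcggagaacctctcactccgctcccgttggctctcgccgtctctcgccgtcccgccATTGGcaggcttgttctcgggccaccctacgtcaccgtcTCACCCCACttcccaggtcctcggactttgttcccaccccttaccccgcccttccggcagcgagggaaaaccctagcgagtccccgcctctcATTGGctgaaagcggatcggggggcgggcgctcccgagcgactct
Mvd: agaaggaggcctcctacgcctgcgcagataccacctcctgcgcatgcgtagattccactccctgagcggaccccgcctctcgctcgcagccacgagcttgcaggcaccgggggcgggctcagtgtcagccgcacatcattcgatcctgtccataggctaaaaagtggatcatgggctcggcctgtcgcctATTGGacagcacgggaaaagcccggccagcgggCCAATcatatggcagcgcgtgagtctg
Cyp51: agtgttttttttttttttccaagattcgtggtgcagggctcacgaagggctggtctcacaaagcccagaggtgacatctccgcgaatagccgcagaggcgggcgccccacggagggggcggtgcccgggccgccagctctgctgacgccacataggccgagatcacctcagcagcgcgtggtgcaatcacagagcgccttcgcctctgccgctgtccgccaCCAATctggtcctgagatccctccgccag
Msmo1: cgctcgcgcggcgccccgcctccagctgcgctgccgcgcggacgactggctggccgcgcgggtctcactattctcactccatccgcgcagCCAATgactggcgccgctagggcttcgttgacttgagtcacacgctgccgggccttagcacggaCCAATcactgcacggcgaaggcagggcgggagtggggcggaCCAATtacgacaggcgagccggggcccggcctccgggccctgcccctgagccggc
Acat2: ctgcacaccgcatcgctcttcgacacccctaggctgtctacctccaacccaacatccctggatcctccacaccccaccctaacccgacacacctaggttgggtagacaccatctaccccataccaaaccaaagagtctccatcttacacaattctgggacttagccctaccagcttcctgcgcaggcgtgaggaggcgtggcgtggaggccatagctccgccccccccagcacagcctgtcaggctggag
Elovl5: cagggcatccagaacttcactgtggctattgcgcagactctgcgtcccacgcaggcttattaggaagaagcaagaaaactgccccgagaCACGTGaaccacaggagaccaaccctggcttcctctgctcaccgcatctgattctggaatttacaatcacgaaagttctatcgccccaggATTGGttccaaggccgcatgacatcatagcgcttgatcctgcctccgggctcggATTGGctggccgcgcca

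The sterol branch was lower in Cd79a-high livers from its first enzyme to its last. With the 4 groups in the model, all 18 sterol members fell, by 0.54 to 1.20 on the log2 scale, with a median of -0.99 against -0.02 over all 16892 genes tested (edgeR quasi-likelihood test, Benjamini-Hochberg adjustment over all genes). In the same test 20.2% of all genes were called lower and 23.4% higher. With column sums as library sizes the median of all genes moved to 0.14, with 5503 genes called higher and 1599 lower in place of 3958 and 3416, and 18 sterol and 12 fatty acid members were still lower. In bulk RNA, the members' levels alone do not tell fewer hepatocytes from less of these RNAs in each hepatocyte. The summed level of 11 hepatocyte markers was 183292 to 269728 CPM in Cd79a-high libraries and 155567 to 200806 CPM in Cd79a-low ones. Most of this sum is Alb, at 128931 to 221242 CPM against 100046 to 144122 CPM. Singly, 8 of the 11 markers had negative estimates (list median -0.13), with 1 called higher and 2 lower. The sum thus mainly follows Alb, and the share of hepatocytes was not tested. With that sum as library size 18 sterol and 14 fatty acid members were lower, with medians of -1.08 and -1.06 against -0.12 over all genes, of which 23.2% were called lower.

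Among the enzymes from acetyl-CoA to the isoprenoid units, Pmvk, phosphomevalonate kinase, had the smallest p of the branch. It stood at 25.2, 43, 48.7, 38.4 and 32.2 CPM in the 5 Cd79a-high females (12:12 libraries 6 and 7, then jet lag libraries 2, 5 and 6) and at 53.4 to 99 CPM, median 65.4, in the 11 Cd79a-low females. In the 3 Cd79a-high males (12:12 libraries 3 and 5, then jet lag library 8) it was at 23.8, 37.5 and 34 CPM, and in the 7 Cd79a-low males at 34 to 61.1 CPM, median 39.4. The female sets did not overlap and the male sets did, and the fitted change was -0.88 (SE 0.13, adjusted p = 6.28e-06). Mvd, the decarboxylase that ends the mevalonate steps, was at 18.3, 20, 34.2, 55.1 and 25.7 CPM in the Cd79a-high females and at 41.8 to 93.4 CPM, median 86.3, in the Cd79a-low females. Males had 23.7, 25.3 and 21.1 CPM against 23.1 to 58.4 CPM, median 29.6. Both sexes overlapped, females through jet lag library 5 alone, and Mvd fell by 1.19 (SE 0.21, adjusted p = 5.24e-05). Acat2, the thiolase that joins acetyl units, was at 87.8, 79.7, 145, 93.9 and 77.1 CPM in Cd79a-high females and at 115 to 191 CPM, median 149, in Cd79a-low females. Its male values were 71.3, 108 and 59.5 CPM against 90.1 to 142 CPM, median 106. Female jet lag library 2 and male 12:12 library 5 lay among the Cd79a-low values, and Acat2 fell by 0.75 (SE 0.13, adjusted p = 3.12e-05). Hmgcs1 fell by 1.20 (SE 0.28), Mvk, mevalonate kinase, by 0.78 (SE 0.19) and Idi1 by 1.02 (SE 0.24).

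In the steps around squalene, Fdft1, squalene synthase, was at 79.9, 135, 149, 123 and 109 CPM in the Cd79a-high females and at 160.2 to 304 CPM, median 217, in the Cd79a-low females. Among males the values were 86.3, 134 and 133 CPM against 112 to 144 CPM, median 124. The female sets were apart and the male sets were not, and Fdft1 fell by 0.79 (SE 0.15, adjusted p = 7.88e-05). Fdps, which makes farnesyl diphosphate, fell by 0.98 (SE 0.19), the squalene epoxidase gene Sqle by 0.96 (SE 0.23) and lanosterol synthase, Lss, by 0.85 (SE 0.20). Reads of Fdft1 are uncertain where it overlaps Ctsb, and those of Tm7sf2 where it overlaps Vps51, since it is not known here whether counting used the strand.

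Among the enzymes that turn lanosterol into cholesterol, Tm7sf2, a sterol reductase, was at 110.1, 133, 136, 159 and 72.7 CPM in the Cd79a-high females against 150.5 to 289 CPM, median 216. In males it was at 97.3, 145 and 99.8 CPM against 139 to 290.0 CPM, median 181. A single Cd79a-high library of each sex reached the Cd79a-low range, and the change was -0.94 (SE 0.15, adjusted p = 1.04e-05). Sc5d was at 135, 307, 421, 276 and 161 CPM in the Cd79a-high females against 398 to 738 CPM, median 545. The males had 154, 384 and 185 CPM against 221 to 455 CPM, median 395. Female jet lag library 2 and male 12:12 library 5 overlapped the Cd79a-low livers, and Sc5d fell by 1.06 (SE 0.19, adjusted p = 5.93e-05). Cyp51, the lanosterol demethylase, fell by 0.99 (SE 0.22), Msmo1, a methylsterol oxidase, by 1.08 (SE 0.22), Nsdhl, which acts on the same methyl groups, by 1.08 (SE 0.22) and Hsd17b7, a sterol ketone reductase, by 1.04 (SE 0.24). Dhcr7, the reductase of a last step, fell by 1.02 (SE 0.19), and Ebp fell least of the branch, by 0.54 (SE 0.12). The largest adjusted p among the 18 was 0.00159.

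**Figure D1:**
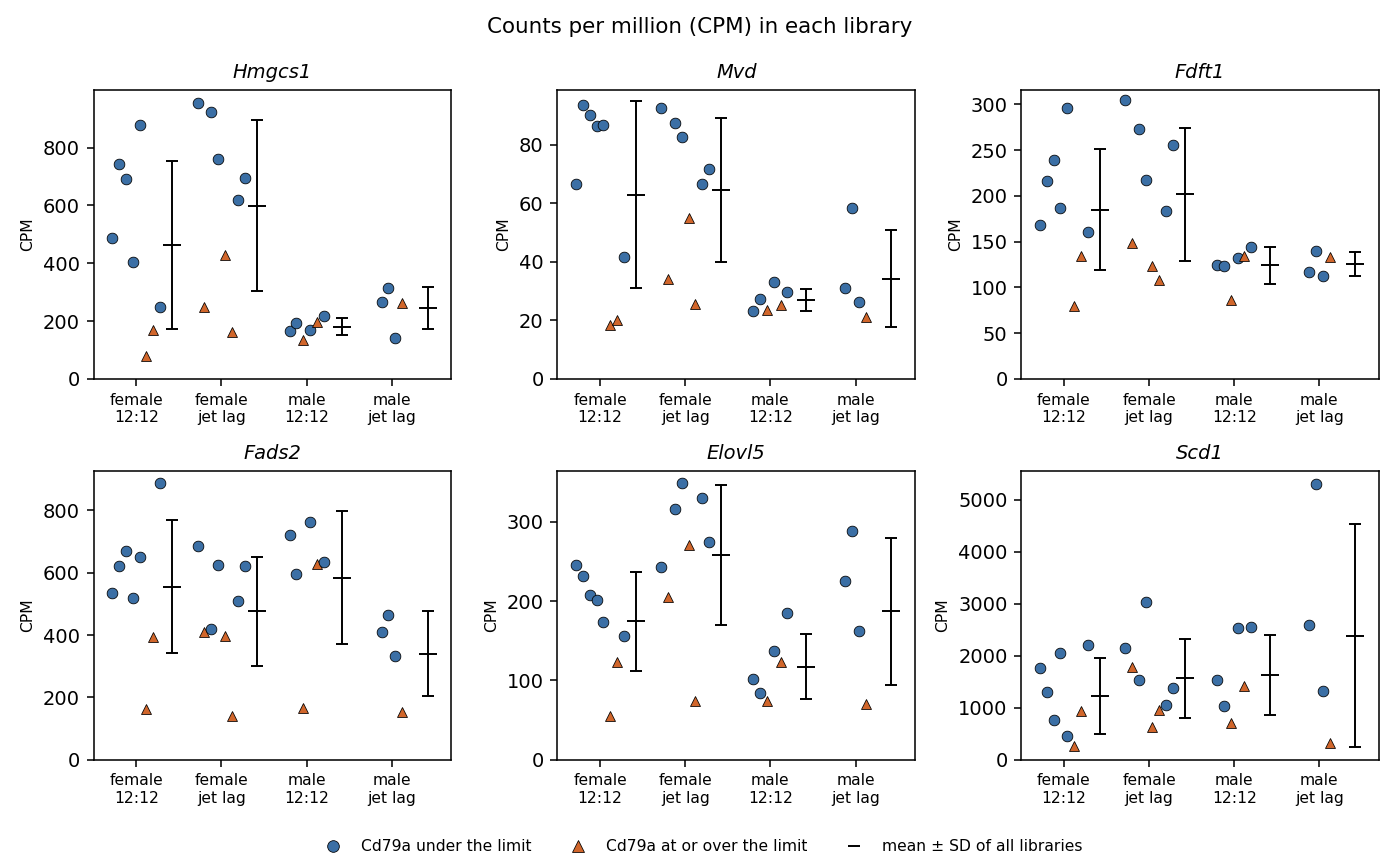
Level in CPM of 3 sterol members (Hmgcs1, Mvd, Fdft1) and 3 fatty acid members (Fads2, Elovl5, Scd1) in each of 26 libraries by sex and lighting, with circles for the 18 Cd79a-low and triangles for the 8 Cd79a-high libraries, and the mean ± SD of all libraries of a group beside them. For Fdft1 the Cd79a-high females lie under all Cd79a-low females, while the males of both classes overlap.

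In the fatty acid branch 13 of 16 members fell in Cd79a-high livers, where 20.2% of all genes were called lower. The median over the 16 was -0.98, and none rose. Gpam, which starts glycerolipid synthesis, missed the threshold at -0.46 (adjusted p = 0.0511), as did Acaca at -0.47 (adjusted p = 0.0863) and the lipid droplet protein gene Pnpla3 at -0.39 (adjusted p = 0.544).

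Among the enzymes that supply acetyl-CoA and reducing power, Acss2, which activates acetate, was at 112, 183, 298, 135 and 95 CPM in the Cd79a-high females and at 258 to 1079 CPM, median 406, in the Cd79a-low females. Male livers had 73.3, 226 and 132 CPM against 165 to 367 CPM, median 249. It fell by 1.35 (SE 0.25, adjusted p = 8.93e-05), with female jet lag library 2 and male 12:12 library 5 inside the Cd79a-low range. Me1, the malic enzyme that makes NADPH, was at 4.83, 11.7, 41.6, 23.7 and 11.7 CPM in the Cd79a-high females against 24.7 to 76.6 CPM, median 45.2. Its male values were 11.1, 41 and 5.95 CPM against 33.7 to 76.7 CPM, median 58.1. The same 2 libraries sat among the Cd79a-low values, and the fall of 1.73 (SE 0.34, adjusted p = 0.000265) was the largest of the 34 members in this fit. Acly, which splits citrate, fell by 0.84 (SE 0.19).

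In the chain-building and desaturating steps, Fasn, fatty acid synthase, fell by 1.00 (SE 0.31, adjusted p = 0.0111), the carboxylase gene Acacb by 1.35 (SE 0.30) and Scd1 by 1.28 (SE 0.36). The elongase genes Elovl5 and Elovl6 fell by 1.03 (SE 0.21) and 0.97 (SE 0.36). Fads2 was at 164, 394, 409, 398 and 141 CPM in the Cd79a-high females and at 420.0 to 889.7 CPM, median 621, in the Cd79a-low females. In males it was at 167, 627 and 153 CPM against 332 to 761 CPM, median 595. The female sets were apart, male 12:12 library 5 lay inside the Cd79a-low males, and the fall was 1.17 (SE 0.21, adjusted p = 5.96e-05). Fads1, the partner desaturase, lies on chromosome 19 with Fads2. It was at 93.2, 229, 258, 209 and 156 CPM in the Cd79a-high females against 263 to 385 CPM, median 318. The males were at 135, 237 and 149.9 CPM against 130.3 to 273 CPM, median 234. Again the female sets were apart and the male sets overlapped, and Fads1 fell by 0.79 (SE 0.14, adjusted p = 7.1e-05).

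At the triglyceride end, Dgat2 was at 329, 339.7, 382, 311 and 332 CPM in the Cd79a-high females against 373 to 649 CPM, median 498. Among males it was at 269, 452 and 208 CPM against 332 to 469.7 CPM, median 375. Female jet lag library 2 and male 12:12 library 5 were the Cd79a-high livers inside the range of the rest, and Dgat2 fell by 0.69 (SE 0.11, adjusted p = 1.03e-05). Thrsp, a small protein of lipogenic tissues, fell by 1.37 (SE 0.42) and Mlxipl by 0.75 (SE 0.23).

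The branches did not rank the livers alike. The level of a branch in a library is the mean over its members of log2(CPM + 1) minus their mean over all 26 libraries. Both branches were lowest in female 12:12 library 6, at -1.20 each. In females the sterol level was -1.20 to -0.08 in the 5 Cd79a-high libraries and 0.03 to 0.89 in the 11 Cd79a-low ones, and these did not overlap. The fatty acid level was -1.20 to 0.46 against 0.00 to 0.96, which overlapped. Female jet lag library 2 had a fatty acid level of 0.46 but a sterol level of -0.21, and female 12:12 library 8 had the highest fatty acid level, 0.96, with a sterol level of 0.03. In males the sterol level was -1.02, -0.15 and -0.40 in Cd79a-high libraries and -0.50 to 0.07 in Cd79a-low ones, so that 12:12 library 3 was the one below the Cd79a-low range. The male fatty acid level was -0.86, 0.08 and -1.16 against -0.40 to 0.89, so that 12:12 library 3 and jet lag library 8 were below the Cd79a-low range.

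**Figure D2:**
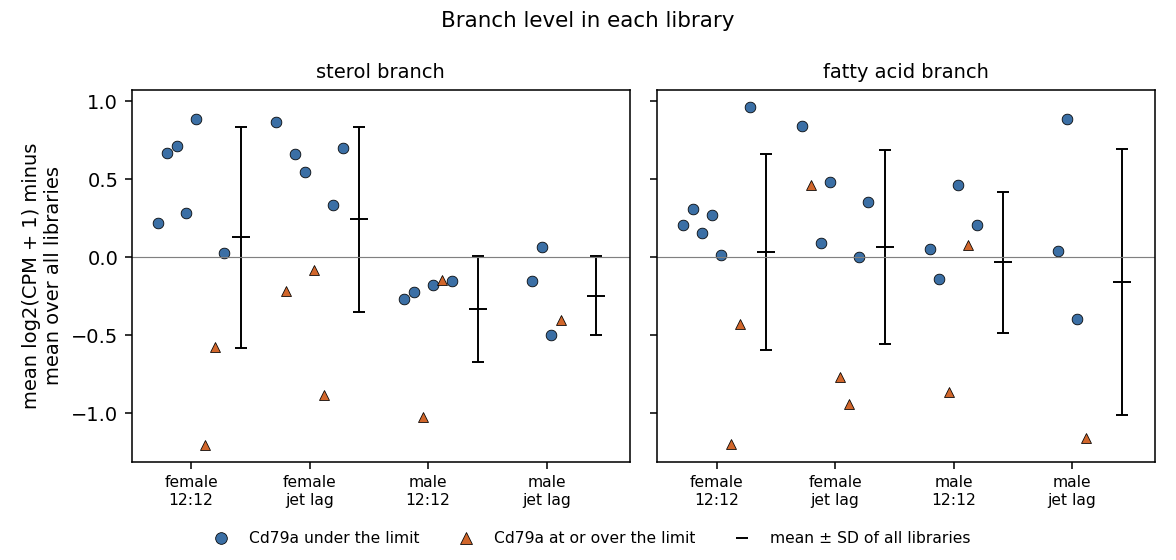
Branch level per library (mean over members of log2(CPM + 1) minus the mean over all libraries, log2 units) by sex and lighting, with circles for Cd79a-low and triangles for Cd79a-high libraries, and bars for the mean ± SD of all libraries of a group. Cd79a-high females lie under all Cd79a-low females in the sterol branch but not in the fatty acid branch.

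Fitted within each sex, a model added after the data were seen, 18 of 18 sterol members fell in Cd79a-high females, where 11.2% of all genes were called lower, with a median of -1.31. Hmgcs1 fell most there, by 1.95 (SE 0.29, adjusted p = 1.56e-05), and 8 of 16 fatty acid members fell, or 14 without female jet lag library 2. Cd79a-high males had 4 sterol members lower, Tm7sf2, Acat2, Pmvk and Ebp, and 9 fatty acid members lower, where 11.8% of all genes were called lower. Their sterol median was -0.51 and their fatty acid median -0.93, against -1.04 for the fatty acid branch in females. The male counts rest on single livers. When male jet lag library 8 was left out both counts were 0, without male 12:12 library 3 they were 1 and 0, without male 12:12 library 5 they were 8 and 11, and without male 12:12 library 6 they were 2 and 5. The fatty acid count was 5 without male 12:12 library 4. The difference between the sexes in this contrast passed edgeR's threshold for 0 of 34 members, where 0.213% of all genes did. An unadjusted p under 0.05 was found for 11 sterol and 0 fatty acid members, and for 1223 of all 16892 genes. The largest value of this difference was -1.69 for Hmgcs1 (95% confidence interval -2.55 to -0.82, adjusted p = 0.123), then -1.32 for Sqle (adjusted p = 0.195). DESeq2 called these 2 genes and limma-voom none, and edgeR called 2 without female jet lag library 5. All 18 sterol estimates of the difference were negative, with a median of -0.87, but with the hepatocyte sum as library size 3 were positive and the median was -0.69. The fatty acid median was -0.03.

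**Figure D3:**
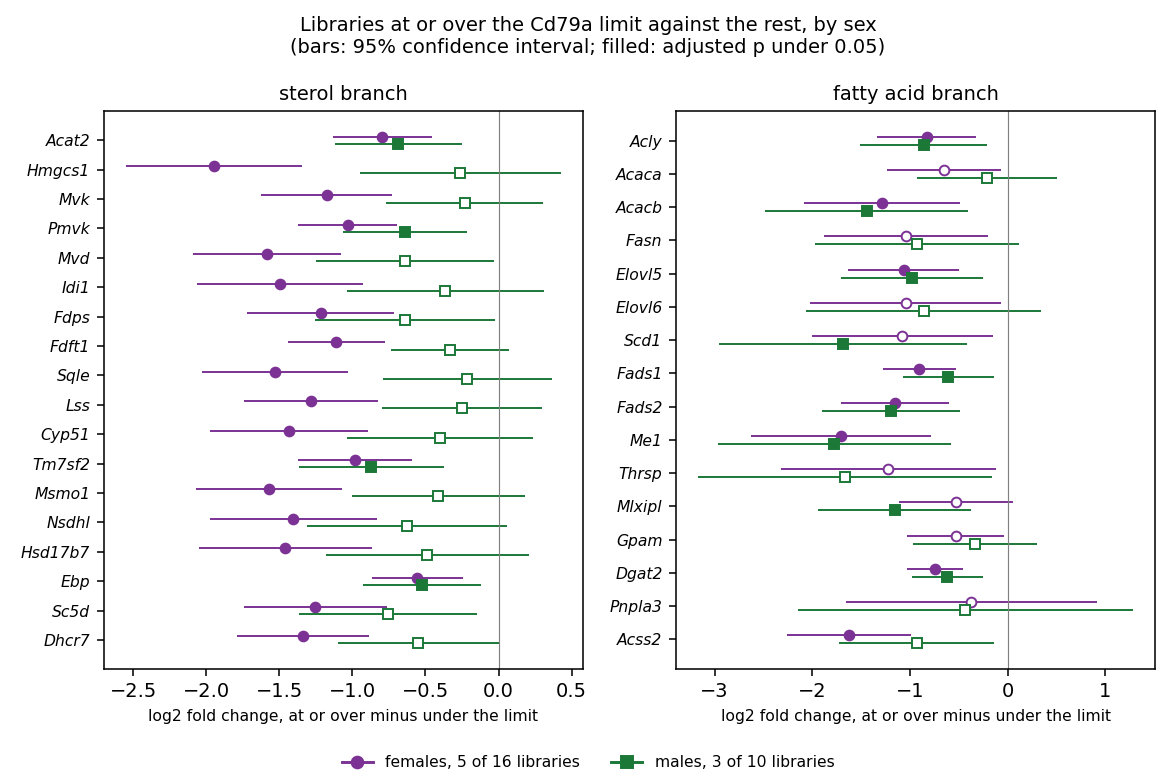
Log2 fold change (Cd79a-high minus Cd79a-low) of each member in females (5 of 16 libraries Cd79a-high) and males (3 of 10), with bars for the 95% confidence interval and filled symbols for an adjusted p under 0.05. The female sterol values reach -1.95, and no male sterol value is lower than -0.87.

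Whole sets of libraries were apart for few members. Every Cd79a-low female was above every Cd79a-high female for 5 of 18 sterol members (Pmvk, Fdft1, Lss, Nsdhl and Dhcr7) and 2 of 16 fatty acid members (Fads1 and Fads2), and for 1.46% of all genes with a mean of at least 1 CPM. In males this held for Mlxipl alone among the 34, with 1.82% of all genes.

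Genes that control sterols were in part lower too. Of 20 genes of sterol regulation, uptake and export, 10 fell and 1 rose in Cd79a-high livers. In this test 20.2% of all genes were called lower and 23.4% higher. Fitted within each sex, 9 of these 20 fell and 1 rose in females, and 2 fell and 2 rose in males. In those fits 11.2% and 11.8% of all genes were called lower. The changes of single genes given next are from the fit over both sexes. Insig1, a retention protein for the SREBP escort, fell by 0.91 and Scap, the escort itself, by 0.53. The sterol carrier gene Stard4 fell by 0.72, Npc1, whose product moves cholesterol out of lysosomes, by 0.63, the phospholipid acyltransferase gene Lpcat3 by 0.44 and the sterol exporter gene Abcg5 by 0.45. Mylip, which encodes a ubiquitin ligase, rose by 0.63. Srebf2 itself was at 0.01 (adjusted p = 0.961). Of 20 further lipogenic genes 9 fell and 2 rose. Elovl3, an elongase, fell by 1.99, Pklr, liver pyruvate kinase, fell by 1.21, Acsl1, which activates fatty acids, fell by 0.82 and Slc25a1, the citrate carrier, fell by 0.69. Among the others that fell were Elovl2, Acsl5, Mid1ip1 and Tecr. G6pdx, the first enzyme of the pentose phosphate route, rose by 1.12 and the desaturase gene Scd2 by 0.63, and Srebf1 was at -0.30 (adjusted p = 0.336). Of 12 fasting-response genes 4 fell and 1 rose, beside the shares of 20.2% and 23.4% over all genes. Among those that fell were Cpt1a by 0.53, Angptl4 by 0.57 and Acot1 by 0.62, and Igfbp1 rose by 1.63. Fitted within each sex, 2 of these 12 fell and 0 rose in females, and 1 fell and 1 rose in males. The highest estimate among the 12 was 0.55 in females and 3.21 in males.

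Markers of other cells moved with the class, in a test that called 23.4% of all genes higher and 20.2% lower. The B-lineage markers other than Cd79a, which made the classes, summed to 36.3 to 307 CPM in Cd79a-high and 5.44 to 15.3 CPM in Cd79a-low libraries, and 8 of 9 tested were higher (median 4.04). All 12 proliferation genes were higher (median 4.10), at 77.3 to 959.7 CPM against 23.3 to 40.8 CPM in sum. All 6 macrophage and Kupffer cell genes were higher (median 1.27), at 438 to 2154 CPM against 225 to 487 CPM. Of 11 hepatocyte markers Alb rose by 0.23, Ttr fell by 0.51 and Serpina1c by 0.46, with a list median of -0.13. Of the 2 adipocyte markers tested, Fabp4 rose by 0.99, at 9.20 to 25.1 CPM in Cd79a-high and 5.30 to 9.35 CPM in Cd79a-low libraries, and Pck1 was at 0.13 (adjusted p = 0.765). The part of the other cells' RNA in the members' fall was not tested.

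Females and males were compared next. Over all 26 libraries the female estimate was above the male one for 18 of 18 sterol members under 12:12 (median 0.43) and for 17 of 18 under jet lag (median 0.41). In edgeR 0 members of either branch passed the threshold, where 3.68% and 1.92% of all genes did. At an unadjusted p under 0.05 there were 3 sterol and 1 fatty acid members under 12:12, and 1 and 0 under jet lag. Of all 16892 genes, 2897 under 12:12 and 2600 under jet lag had such a p. The nearest were Mvd (1.14, adjusted p = 0.105) and Hmgcs1 (1.28, adjusted p = 0.119) under 12:12. DESeq2 called these 2 under 12:12 and none under jet lag, limma-voom called none, and edgeR called 2 sterol members without female 12:12 library 6 and 1 without library 7.

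In the 18 Cd79a-low libraries most of the sterol branch was higher in females, in a comparison over both lightings that was added after the data were seen. In a model of sex and lighting 14 of 18 sterol members were higher in females, where 10.7% of all genes were, with a median of 0.60 against 0.02 over the 16431 genes tested. The 4 that missed the threshold were Acat2 (0.27, adjusted p = 0.0635), Ebp (0.25), Nsdhl (0.31) and Tm7sf2 (0.09). Within 12:12 lighting 7 sterol members were higher in females (4.6% of all genes), and within jet lag 6 were (5.54%). With all 26 libraries and the class in the model, 3 were higher (Mvd, Hmgcs1 and Fdft1), and 6.61% of all genes. In the 18 libraries, 1761 genes were called higher and 1427 lower in females. Column sums as library sizes moved the median of all genes to 0.16 and these counts to 3178 and 721, and the hepatocyte sum moved the counts to 1058 and 1722.

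Hmgcs1 showed the widest gap of the branch. It was at 249 to 879 CPM, median 589, in 6 females under 12:12 and at 955, 924, 760.3, 620.2 and 696 CPM in 5 females under jet lag (libraries 1, 3, 4, 7 and 8). The males were at 165, 195, 171 and 218 CPM under 12:12 (libraries 1, 2, 4 and 6) and at 265, 313 and 142 CPM under jet lag (libraries 5, 6 and 7). Female 12:12 library 8 was the single female inside the male range, and the female excess was 1.54 (SE 0.21, adjusted p = 2.75e-05). In the same order of groups, Mvd was at 41.8 to 93.4 CPM, median 86.6, and at 92.6, 87.4, 82.5, 66.5 and 71.7 CPM in the females. The males had 23.1, 27.4, 32.9 and 29.6 CPM and 31.1, 58.4 and 26.4 CPM. Female 12:12 library 8 and male jet lag library 6 overlapped, and the excess was 1.14 (SE 0.18, adjusted p = 9.77e-05). Fdft1 was at 160.2 to 296 CPM, median 201, and at 304, 273, 217, 184 and 256 CPM in the females. All males lay under these, at 124, 123, 132 and 144 CPM and 116, 140.2 and 112 CPM. Fdft1 was the 1 member of 34 whose sexes did not overlap, with females above males for 3.13% of all genes, and its excess was 0.69 (SE 0.13, adjusted p = 0.000538).

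The other sterol members higher in females were spread over the route. Before the isoprenoid units they were Mvk (0.81), Pmvk (0.49) and Idi1 (0.63), and around squalene Fdps (0.46), Sqle (0.71) and Lss (0.75). After lanosterol they were Cyp51 (0.56), Msmo1 (0.78), Hsd17b7 (0.66), Sc5d (0.50) and Dhcr7 (0.57). Each of the 14 stayed past the threshold when any 1 of the 18 libraries was left out, under the other scalings, and in DESeq2 and limma-voom. In the fatty acid branch 4 of 16 were higher in females, Fads1 (0.37), Acss2 (0.68), Dgat2 (0.29) and Elovl5 (0.43), with a branch median of 0.08. With the hepatocyte sum as library size this count was 0, without male 12:12 library 1 or male 12:12 library 2 it was 1, and without male 12:12 library 4 or male jet lag library 5 it was 2. Scd1 (-0.71, adjusted p = 0.141) and Thrsp (-0.95, adjusted p = 0.0977) had lower female estimates that missed the threshold.

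**Figure D4:**
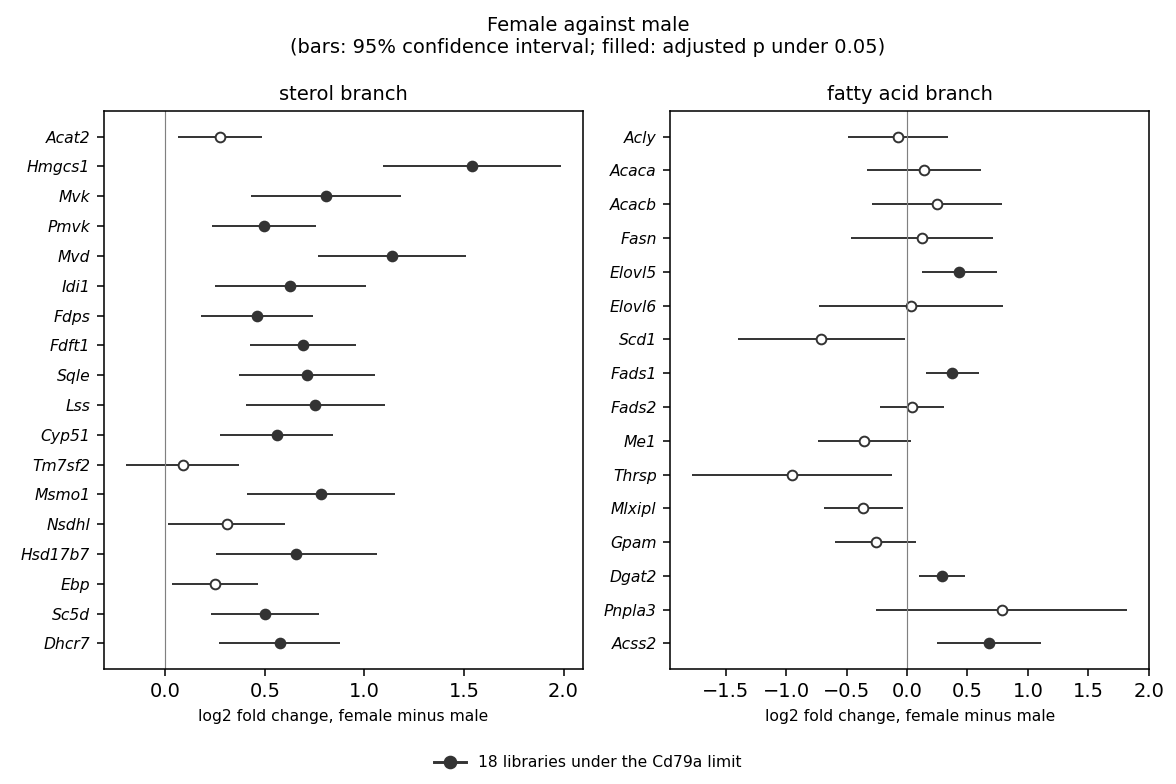
Log2 fold change (female minus male) of each member in the 18 Cd79a-low libraries, 11 female and 7 male, with bars for the 95% confidence interval and filled symbols for an adjusted p under 0.05. The sterol values run from 0.09 to 1.54, all above 0, and fatty acid values lie on both sides of 0.

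Among the sterol regulators, 9 of 20 were higher in these females and none lower, where 10.7% of all genes were higher. Srebf2 was higher by 0.80, Scap by 0.54 and Npc1 by 0.61. The sterol exporter genes Abcg5 and Abcg8 were higher by 0.60 and 0.56, and Cyp7a1, the rate-limiting enzyme of bile acid synthesis, by 1.77. Of the 20 further lipogenic genes 2 were higher in females (Acsl3 by 0.68 and Nr1h2 by 0.33) and 6 lower, where 8.68% of all genes were lower. The lower ones included Elovl3 (-5.22), Agpat2 (-0.62), Acsl1 (-0.46), Elovl1 (-0.32) and Slc25a1 (-0.24). Of 12 fasting-response genes Cyp4a14, Cyp4a10 and Ppargc1a were higher, by 0.53 to 1.00, and G6pc was lower (-1.23). Of 11 hepatocyte markers 2 were higher and 2 lower. Of 9 B-lineage markers tested 2 were higher, Cd22 among them by 0.62, and 3 of 6 macrophage and Kupffer genes were higher by up to 0.54. The B-lineage sum was 8.86 to 18.3 CPM in the females and 7.10 to 11.1 CPM in the males. The part of these cells in the female excess was not tested.

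Jet lag against 12:12 is the contrast of the authors' deposited comparison. Over both sexes 0 of 18 sterol and 0 of 16 fatty acid members passed edgeR's threshold, where 0.781% of all genes did. At an unadjusted p under 0.05 there were 0 sterol members and 1 fatty acid member, against 1353 of all 16892 genes. Neither DESeq2 nor limma-voom called any member. The medians were 0.05 and 0.01, against 0.02 over all genes. The 95% confidence intervals bound the sterol changes, and ran from -0.24 to 0.46 for Acat2, from -0.28 to 0.99 for Hmgcs1 and from -0.43 to 0.68 for Mvd. All 18 sterol intervals lay within 1 log2 unit of 0. In the fatty acid branch 9 of 16 intervals went past 1 unit, among them Scd1 (-0.33 to 1.17) and Pnpla3 (-0.04 to 1.74), and that of Fasn was -0.84 to 0.43. In the authors' deposited table of the same comparison 0 of 34 members had an adjusted p under 0.05, with a lowest value of 0.936 in the sterol and 0.37 in the fatty acid branch, against 1.26% of its 17669 genes.

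Within females edgeR called 0 members (0% of all genes), within males 0 (0.0118%), and the difference between the sexes in the response passed for 0 (0%). At an unadjusted p under 0.05 these fits had 0, 0 and 0 sterol members, and 0, 1 and 0 fatty acid members. Of all 16892 genes, 772, 1630 and 902 had such a p. DESeq2 and limma-voom called no member in any of the 3. The branch levels of the lightings overlapped. The sterol level was 0.13 ± 0.71 (SD, n = 8) in females under 12:12 and 0.24 ± 0.59 (n = 8) under jet lag, and -0.33 ± 0.34 (n = 6) and -0.25 ± 0.25 (n = 4) in males. The fatty acid level was 0.04 ± 0.63 and 0.07 ± 0.62 in females and -0.03 ± 0.45 and -0.16 ± 0.85 in males.

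Elovl5 was the 1 member that rose under jet lag in Cd79a-low livers. This elongase of polyunsaturated fatty acids was at 156 to 245 CPM, median 205, in 6 females under 12:12 and at 243, 316, 349.6, 331 and 274 CPM in 5 females under jet lag. In males it was at 102, 84.1, 137 and 185 CPM under 12:12 and at 225, 289 and 163 CPM under jet lag. A single library of each lighting overlapped in either sex, and the rise was 0.63 (SE 0.14, adjusted p = 0.0217), where 1.38% of all genes rose and 0.937% fell. It missed the threshold when jet lag library 3 of the females or library 6 of the males was left out (adjusted p up to 0.0531), and over all 26 libraries it was 0.58 (adjusted p = 0.498). Fads2, which acts in the same polyunsaturated route, was at 721, 595, 761 and 636 CPM in Cd79a-low males under 12:12 and at 411, 465.8 and 332 CPM under jet lag. These sets did not overlap, and Fads2 fell by 0.76 in males (adjusted p = 0.0388), where 0.475% of all genes fell. In Cd79a-low females it was at 519.9 to 889.7 CPM, median 636, against 685, 420.0, 626, 509.8 and 621 CPM, which overlapped, and over both sexes the estimate was -0.44 (adjusted p = 0.0678). The difference between the sexes passed for 0 members in these libraries (0% of all genes, with 2 sterol and 2 fatty acid members at an unadjusted p under 0.05), and in females alone 0 members passed (0.0791%).

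**Figure D5:**
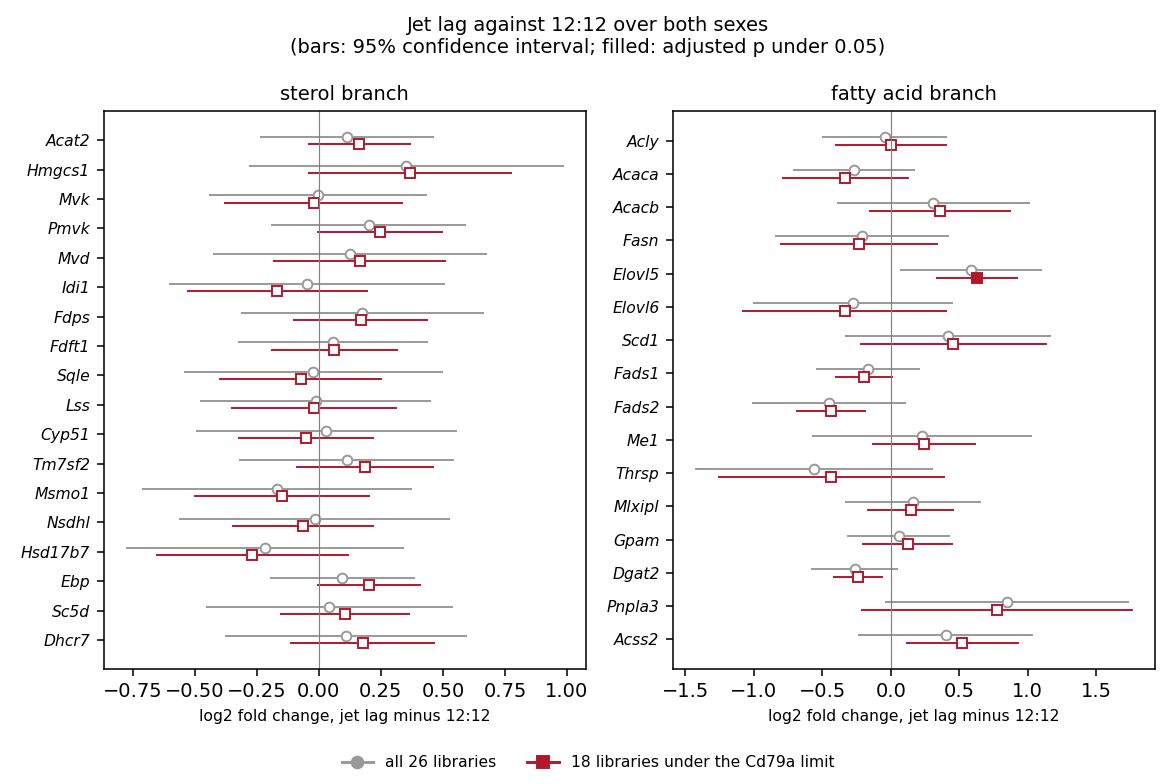
Log2 fold change (jet lag minus 12:12) of each member over both sexes, in all 26 libraries and in the 18 Cd79a-low libraries, with bars for the 95% confidence interval and filled symbols for an adjusted p under 0.05. The single filled symbol is Elovl5 at 0.63 in the Cd79a-low libraries.

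Besides Fads2, 4 members had male Cd79a-low sets that did not overlap between the lightings. Acat2 and Tm7sf2 were above under jet lag, as were 6.29% of all genes, and Idi1 and Msmo1 were below, as were 4.1%. In Cd79a-low females no member was apart.

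Among the control genes, Insig2, like Insig1 a retention protein, rose under jet lag by 1.21 over all 26 libraries (adjusted p = 0.00201), where 0.444% of all genes rose, and by 1.32 in the 18 (adjusted p = 0.0013). It was the only one of 20 sterol regulators called over all libraries. In the 18 libraries 1 of the 20, Insig2, rose and 1 fell, where 1.38% of all genes rose and 0.937% fell. Of the 20 further lipogenic genes in these libraries, Elovl3 rose by 1.92 (adjusted p = 0.0329) and Acsl5 by 0.38 (adjusted p = 0.023), over both sexes. In the Cd79a-low females alone 0 of these 20 passed the threshold, where 0.0791% of all genes did. The highest estimate among the 20 was 0.69 there, so the 1.92 of Elovl3 does not describe the females. Of the 20 further lipogenic genes and the 12 fasting-response genes edgeR called 0 over all 26 libraries. At an unadjusted p under 0.05 there were 5 and 4, against 1353 of all 16892 genes.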

How the data were processed

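Liver RNA of 26 Eµ-MYC mice was sequenced, 1 library a mouse as far as the titles tell. If the samples were not separate animals, p-values measure only the spread between these samples. The authors' deposited table holds expected counts (reads per gene name, with 0.015 in place of 0 in 45.8% of cells and 1.44% of cells not whole within 1e-06). Its 36930 lines carry 36883 names. The submitters' processing notes name STAR, DESeq2 and mm10 without versions, and the sources used here do not name the counting tool, its annotation or its strand setting. A table of the authors' own comparison holds log2 fold changes of 12:12 over jet lag, as deposited, of which none is printed. Its adjusted p-values, as deposited by the authors, are named where used.

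The stand-in was set to 0 and the expected counts were rounded to whole numbers. Levels are CPM on column sums. edgeR 4.0.16 (R 4.3.3, TMM scaling, filterByExpr with a minimum count of 10, quasi-likelihood F test, Benjamini-Hochberg adjustment over all genes, threshold 0.05) was fitted to the whole table with 4 group means, and with the Cd79a class as a further term for the class. Lighting over both sexes and sex over both lightings were fitted with additive terms for sex and lighting in place of the group means. For sex over both lightings in all 26 libraries the model also held the class. Standard errors are the log2 fold change over the root of F. The procedure was tested on simulated data. Alternatives used DESeq2 1.42.0, limma-voom (limma 3.58.1), other library sizes and filters, other Cd79a limits, fewer libraries, and the replicate number as a block. Same-numbered libraries were checked for pairing, and 6 of 10 pairs correlated above 0.1 (-0.38 to 0.60). These mixed values do not settle whether the numbers mark pairs, and the titles state no pairing. The main fits did not take the numbers as pairs. No 2 libraries of a group agreed within sampling noise (lowest chi-square per degree of freedom 30.1). Fits of lighting, and of sex within each lighting, without the Cd79a-high libraries were planned as alternatives. Sex over both lightings and the class within each sex were added after the data were seen. So were the refits of these, and of lighting in the Cd79a-low livers, under other settings.

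The 34 members, the other gene lists and the Cd79a limit were chosen with earlier results of these data known. Every member could be named. Libraries are given one by one for up to 6 members of each branch in a comparison, first those past the threshold and then by smallest p, and from the other lists members past the threshold and up to 4 more were named. Some genes of these other lists are counted but not reported here by name. Promoter sequences are RefSeq's, of GRCm38.p6. Figures were drawn with matplotlib 3.10.9.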

Additional observations from a re-analysis of the deposited data

Results flagged for a closer look

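Of 144 sets of values (members or branch levels in the 4 groups), 20 had 1 library farther from the rest than Dixon's 95% limit for its group size allows. For normal values from 1 population chance gives about 1 in 20 such sets. That rate need not hold here, since members were tested on unlogged CPM and each group mixes Cd79a-high and Cd79a-low livers. The sets are also not independent, since members of a branch share libraries.

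Male 12:12 library 3, which is Cd79a-high, stood lowest of its group of 6 in most of them. Its sterol branch level was -1.02, with the nearest library at -0.27. Before and around squalene, Idi1 was at 4.35 CPM (nearest library 9.68), Fdps at 17.4 CPM (nearest library 40.7), Fdft1 at 86.3 CPM (nearest library 123) and Lss at 36.9 CPM (nearest library 55.8). After lanosterol, Cyp51 was at 64.9 CPM (nearest library 135), Msmo1 at 59.1 CPM (nearest library 123), Nsdhl at 24.3 CPM (nearest library 82.3) and Dhcr7 at 37.4 CPM (nearest library 79.9). The desaturase genes were low in it too, Fads1 at 135 CPM (nearest library 231) and Fads2 at 167 CPM (nearest library 595).

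Female 12:12 library 8, which is Cd79a-low, stood highest of its 8 for Fasn at 2821 CPM (nearest library 1242), Acly at 755 CPM (nearest library 446) and Elovl6 at 54.6 CPM (nearest library 19). Female jet lag library 1 stood highest for Acss2 at 1079 CPM (nearest library 494) and Acacb at 341 CPM (nearest library 163). Pnpla3 was highest in female jet lag library 2 at 13 CPM (nearest library 6.52). Male jet lag library 6 was highest of its 4 for Thrsp at 715 CPM (nearest library 118) and Pnpla3 at 9.65 CPM (nearest library 2.19), and lowest for Mvk at 18.5 CPM (nearest library 24.4).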

How the results depend on the processing

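Lower sterol members in Cd79a-high livers of both sexes numbered 18 under every scaling, filter, tool and Cd79a limit tried and with any 1 library left out, and fatty acid members 12 to 15 and 11 to 15. With male libraries alone they were 0 and 1. In the fits within each sex, the female fatty acid count was 14 in limma-voom and 7 to 14 with 1 library left out. The male counts were 1 sterol and 2 fatty acid members with column sums, and 0 to 8 and 0 to 11 with 1 library left out. The difference of the sexes had 2 sterol members in DESeq2 and 0 to 2 with 1 library left out.

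Sex under 12:12 gave 1 sterol member with column sums, 2 in DESeq2, 2 with the Cd79a level as covariate, 1 with that covariate and the hepatocyte sum, 0 to 2 with 1 library left out and 7 without the Cd79a-high libraries. Without female 12:12 library 8 as well, chosen after seeing the data, it gave 9 sterol members and 1 fatty acid member. Sex under jet lag gave 6 sterol members and 1 fatty acid member without the Cd79a-high libraries, and 7 and 1 without that library too. In the Cd79a-low livers the fatty acid count for sex, in either direction, was 0 with the hepatocyte sum and 1 to 5 with 1 library left out.

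Lighting gave 1 fatty acid member over both sexes and 1 in males without the Cd79a-high libraries, with or without female 12:12 library 8. In that set the count over both sexes was 2 in DESeq2 and 0 to 3 with 1 library left out (0 without female jet lag library 3 or male jet lag library 6, 3 without female jet lag library 8, and 2 without female 12:12 library 4 or female jet lag library 1). With the replicate number as a block, lighting had 0 members over both sexes, 0 in females and 0 in males, as in the main fits. Among males only numbers 5 and 6 occur under both lightings, so the male block fit rests on those livers. With 0 calls either way, these counts cannot show whether the numbers matter. No result changed direction with its call. Of 565 single-gene values under other settings 479 kept direction and side of the threshold, 50 passed it newly and 36 no longer did. Of 1378 with 1 library left out, 1360, 10 and 8 did. Where a count moved, the cause was not tested. Depth was even, and the lowest level of any member, 0.650 CPM for Pnpla3, lay above the 0.0661 CPM that a count of 0 allows. Comparisons within males rest on 3 Cd79a-high and 4 jet lag libraries.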
